A study of Mus musculus with 8 samples.

Results

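The genes described here encode the ion exchangers and metal ion carriers of the solute carrier families Slc4a, Slc8a, Slc9a, Slc20a, Slc24a, Slc26a, Slc30a, Slc39a and Slc41a. They were chosen by symbol, as any gene whose symbol is 1 of these 9 family names followed by a number. Earlier results of these data were known when the families were chosen. The files held 67 such genes among 20871 gene symbols in all: 10 Slc4a, 3 Slc8a, 9 Slc9a, 2 Slc20a, 6 Slc24a, 10 Slc26a, 10 Slc30a, 14 Slc39a and 3 Slc41a. RNA values were listed for 43 of them. The other 24 were seen only in the hydroxymethylation data, where all 67 had at least 2 measured sites. Slc24a6 is an older symbol of Slc8b1, and RNA was listed under the newer name, so it is given below with the calcium pumps.

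Mouse brain cells were collected at postnatal day 60 from C57BL/6 reporter mice by fluorescence-activated sorting. Adult oligodendrocyte progenitor cells (aOPC) came from Pdgfra-H2BEGFP mice, in which the Pdgfra promoter drives a green fluorescent histone, and adult oligodendrocytes (aOL) came from Plp-EGFP mice, in which the Plp promoter drives the fluorescent protein. No treatment was given to either group, and each had 2 RNA libraries and 2 DNA libraries, replicates 2 and 3, with RNA and DNA taken from 1 cell pellet. Cell population, reporter line and animals differ together and cannot be told apart; the labels of the aOL DNA samples name the Pdgfra reporter as their tissue, and the aOL RNA titles call the cells pre-myelinating where the protocol calls them myelinating. No label says that the 2 replicates of a group came from separate animals, so p-values measure the spread between these samples. The Y-linked gene Ddx3y was 12.43 in aOPC RNA replicate 2 and 0.32 to 1.63 in the other 3 RNA libraries, so aOPC replicate 2 stood apart in it, while reads on chromosome Y made up 0.398 to 0.555% of all 4 RRHP libraries. Whether the animals' sex differed between replicates was not tested.

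These carriers move ions across membranes without using ATP themselves. Slc4a proteins carry bicarbonate, Slc9a proteins exchange sodium for protons and Slc26a proteins exchange anions, and together they set the pH of the cytoplasm and of organelles. Slc8a and Slc24a proteins remove calcium in exchange for sodium, Slc20a proteins take up phosphate and Slc41a proteins carry magnesium. The zinc carriers form opposed families: Slc30a proteins (ZnT) move zinc out of the cytoplasm, to the outside or into organelles, and Slc39a proteins (ZIP) bring zinc and some other metals into it. Oligodendrocytes are known for their high iron content, and in all cells the endosomal sodium-proton exchangers limit the acidity of recycling vesicles.

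RNA is given as the deposited log2 normalized value, which is not divided by gene length. The number of reads behind it is not known. 5-Hydroxymethylcytosine (5hmC) was measured by reduced representation hydroxymethylation profiling (RRHP), in which a glucosylated 5hmC protects a CCGG from the enzyme MspI, so that the read count at a CpG site rises with its 5hmC. The 4 RRHP libraries held 7113237 (aOPC replicate 2), 17121440 (aOPC replicate 3), 15923775 (aOL replicate 2) and 27057859 (aOL replicate 3) reads. CPM below is the read count scaled to library size with TMM, and every difference is aOL minus aOPC on the log2 scale. The share of reads in CpG islands was 5.74% in aOPC replicate 2 and 2.38 to 3.32% in the other 3 libraries.

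Cell type markers did not separate the RNA libraries cleanly. Pdgfra was 7.54 and 5.47 in aOPC against 4.98 and 1.63 in aOL, and Neu4 was 9.90 and 7.07 against 3.03 and 3.61, yet the summed level of the 9 progenitor markers was 13.48 and 10.87 in aOPC against 11.35 and 11.71 in aOL. The 8 oligodendrocyte markers summed to 22.63 and 22.44 in aOPC and to 22.56 and 22.60 in aOL, so mature oligodendrocyte transcripts were as abundant in the libraries labelled aOPC. aOPC replicate 3 was below both aOL libraries in the progenitor sum and was highest in the erythroid sum, at 14.34 against 11.04 to 12.82 in the others. The median gap between the 2 libraries of a group over all tested genes was 0.48 for aOPC and 0.12 for aOL. Of the 7 endothelial markers only Cldn5 was listed, at 0.33 and 1.80 in aOPC against 5.92 and 7.13 in aOL; the astrocyte, microglia, neuron and pericyte sums overlapped between the groups, and that of choroid plexus and ependyma was 11.60 and 11.53 in aOPC against 11.18 and 11.46 in aOL. The part of these in the results was not tested. In bulk samples fewer cells of a type and less RNA per cell cannot be told apart.

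More carriers had higher RNA in aOL than in aOPC, but none passed the threshold after adjustment for all genes. Of the 43 genes, 30 (69.8%) had a higher mean in aOL, against 51.3% of the 11133 genes tested, and their median difference was 0.43 against 0.02 for all tested genes. Under limma (p under 0.01 and Benjamini-Hochberg adjusted p under 0.05) 0 carriers were called, where 0.0808% of all genes were, and at an unadjusted p under 0.05 there were 12 higher (27.9%) and 2 lower (4.65%), where 12.1% of all genes were higher and 12% lower. Both aOL libraries lay above both aOPC libraries for 23 carriers (53.5%) and below them for 7 (16.3%), against 31.9% and 29.9% of all genes. These counts rest on 2 libraries a group, and leaving out 1 library changed them: with aOPC replicate 2 left out 12 of 42 tested carriers (28.6%) were called higher and 2 (4.76%) lower, where 18.4% and 17.9% of all genes were. With aOPC replicate 3 left out 10 (23.8%) were called higher and 2 lower, where 12% and 9.28% of all genes were. With aOL replicate 2 left out the carriers were 0 and 1 (all genes 0.0724% and 0.832%), and with aOL replicate 3 left out 0 and 2 (0.0724% and 0.824%). The median difference lay between 0.36 and 0.45 in these 4 fits.

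**Figure D1:**
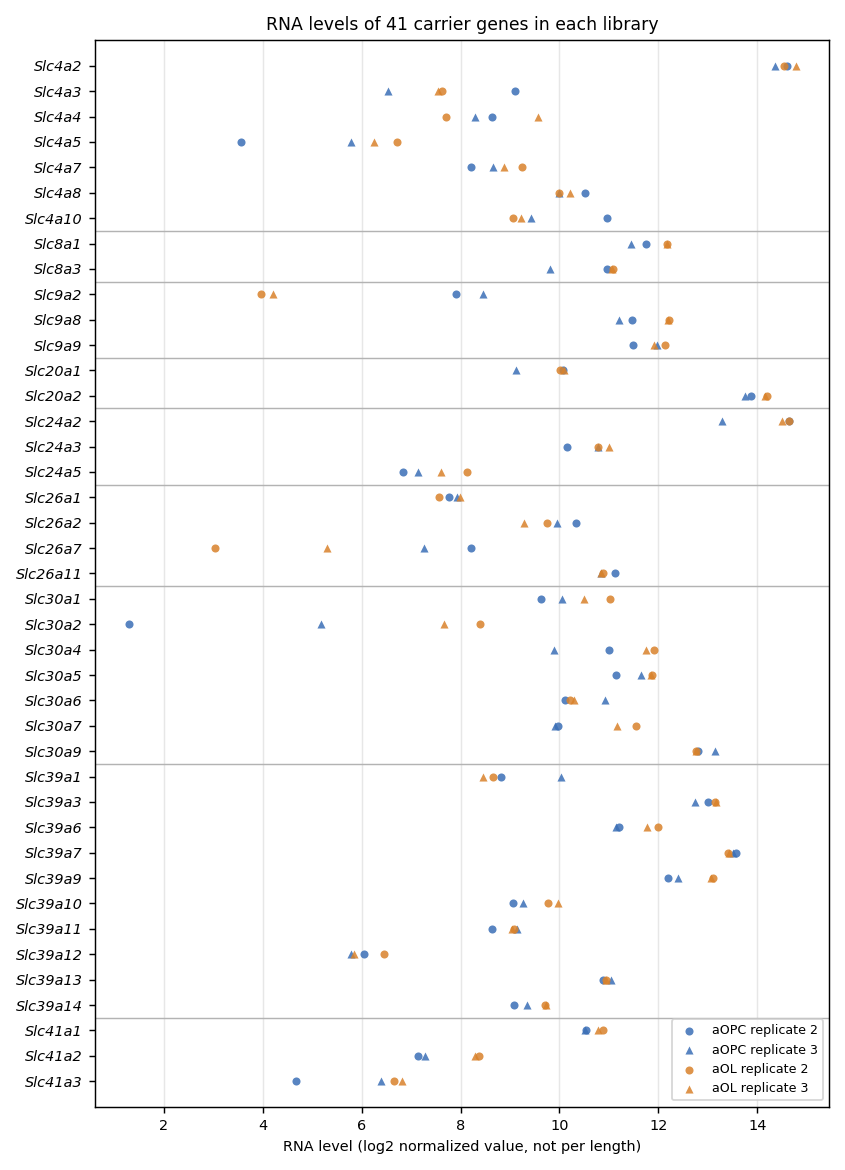
RNA level of 41 of the listed carriers in each library, as the deposited log2 normalized value, with aOPC in blue and aOL in orange (circles replicate 2, triangles replicate 3) and lines between the families. Slc9a2 and Slc26a7 lie well to the left in aOL, Slc30a2 lies to the right in aOL, and for most other genes the 4 points fall within 2 of each other.

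Zinc exporters and zinc importers held 7 of the 12 higher carriers. Among the 17 zinc carriers listed, 12 had a higher mean in aOL, against 51.3% of all genes. Of the 17, 10 (58.8%) did not overlap with aOL above and 3 (17.6%) with aOL below, against 31.9% and 29.9% of all genes. At an unadjusted p under 0.05, 7 (41.2%) were higher and 0 lower, against 12.1% and 12%. The smallest adjusted p of the 17 was 0.126. So the group is described by its direction, and no zinc carrier was called.

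Slc30a7, which loads zinc into the early secretory pathway, was 9.97 and 9.91 in aOPC against 11.55 and 11.17 in aOL. The difference was 1.42 ± 0.23 (SE; adjusted p = 0.126), a 2.67-fold higher value, with no overlap and a narrow spread in aOPC. Slc30a4, a vesicular zinc transporter, was 11.01 and 9.90 against 11.91 and 11.76, a difference of 1.38 ± 0.43 (adjusted p = 0.18). aOPC replicate 3 was the low library for Slc30a4. Slc30a1, the zinc exporter of the plasma membrane, was 9.63 and 10.05 against 11.02 and 10.49, a difference of 0.91 ± 0.30 (adjusted p = 0.189).

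Slc30a2, another vesicular zinc transporter, had the widest difference of all carriers. It was 1.29 and 5.18 in aOPC against 8.39 and 7.66 in aOL, a difference of 4.79 ± 1.39 (adjusted p = 0.17). The 2 aOPC libraries differed from each other by 3.90, so the size of this difference is poorly fixed, although the groups do not overlap. Slc30a5 was above in aOL without overlap (0.47 ± 0.25), Slc30a6 overlapped, and Slc30a9, linked to mitochondrial zinc and the most abundant exporter, was 12.79 and 13.15 in aOPC against 12.76 in each aOL library.

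Among the importers, Slc39a9 was 12.19 and 12.40 in aOPC against 13.10 and 13.06 in aOL (0.79 ± 0.20, adjusted p = 0.153). Slc39a6, a zinc importer of the cell surface, was 11.20 and 11.14 against 11.98 and 11.77 (0.71 ± 0.20, adjusted p = 0.165). Its close relative Slc39a10 was 9.05 and 9.27 against 9.77 and 9.97 (0.71 ± 0.21, adjusted p = 0.174). All 3 were higher in both aOL libraries than in either aOPC library, by 1.64- to 1.73-fold. Slc39a7, which releases zinc from the endoplasmic reticulum, was the most abundant importer, at 13.58 and 13.51 in aOPC against 13.41 and 13.43 in aOL, and differed by only -0.12 ± 0.19. The others ranged from -0.87 for Slc39a1 to 0.51 for Slc39a14.

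**Figure D2:**
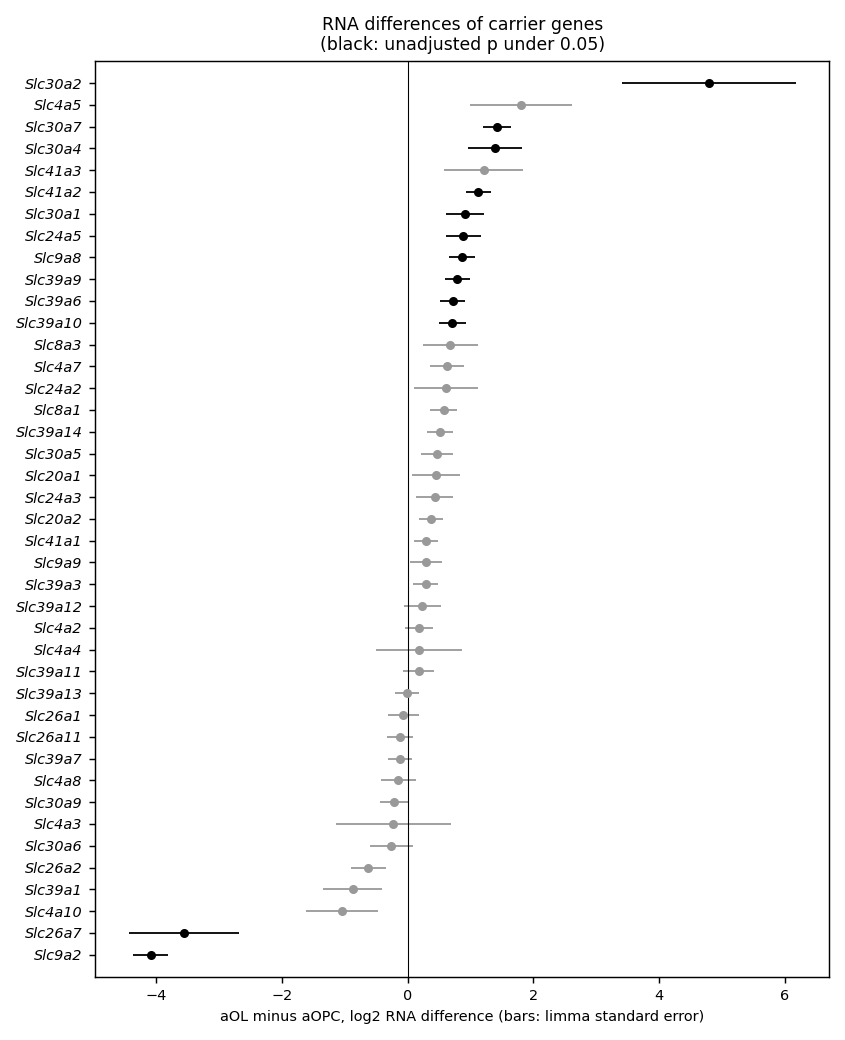
RNA difference of 41 carriers, aOL minus aOPC on the log2 scale, with limma standard errors and black points for an unadjusted p under 0.05. The black points to the right lie between 0.71 and 4.79, and the 2 to the left, Slc26a7 and Slc9a2, lie at -3.56 and -4.09.

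The genes that work beside the zinc carriers were looked up as a fixed list of 16 zinc, copper and iron handling genes, of which 13 were tested. None was higher and 4 were lower in aOL at an unadjusted p under 0.05, where 12.1% of all genes were higher and 12% lower. Mt1, a metallothionein that binds zinc, was 13.77 and 13.54 in aOPC against 12.41 and 12.61 in aOL, a difference of -1.15 ± 0.21 (adjusted p = 0.132). Mt3, the metallothionein of brain, was 8.42 and 9.005 against 7.51 and 7.52 (-1.20 ± 0.27, adjusted p = 0.143). Mtf1, the zinc-sensing factor that drives metallothionein and Slc30a1 transcription, was 12.33 and 12.22 against 12.36 and 12.39. Both metallothioneins were thus lower in both aOL libraries while Slc30a1 was higher. Fth1, the ferritin heavy chain, was 19.71 in each aOPC library against 19.04 in each aOL library (-0.67 ± 0.18, adjusted p = 0.164), and Hfe, a regulator of iron uptake, was 7.25 and 7.29 against 4.98 and 5.85 (-1.85 ± 0.36, adjusted p = 0.133).

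Because 4 of the 7 listed zinc exporters were higher at an unadjusted p under 0.05, the promoters were read for the core of the metal response element to which Mtf1 binds. The core was searched as TGCACNC and TGCGCNC on both strands, within the 250 bases before each RefSeq start (GRCm38.p6). Of 32851 such windows over all genes 21.4% held at least 1 match, of the 63 windows of 51 carriers 36.5% did, and of the 25 windows of 20 zinc carriers 44.0% did. At least 2 matches were held by 5.17% of all windows, 4.76% of the carriers' and 12% (3 of 25) of the zinc carriers'. Slc30a10 had 3 matches, 2 of them in 1 stretch that matches on both strands, and Slc30a2 and Slc30a4 had 2 each. Slc30a1, Slc30a5 and a window of Slc30a3 had 1, and Slc30a6, Slc30a7 and Slc30a9 had 0. The window of Slc30a4, shown because it is the exporter with 2 matches that no annotated exon overlaps, runs as follows on the minus strand (chr2:122702664-122702913), with the matches in capitals.
Slc30a4: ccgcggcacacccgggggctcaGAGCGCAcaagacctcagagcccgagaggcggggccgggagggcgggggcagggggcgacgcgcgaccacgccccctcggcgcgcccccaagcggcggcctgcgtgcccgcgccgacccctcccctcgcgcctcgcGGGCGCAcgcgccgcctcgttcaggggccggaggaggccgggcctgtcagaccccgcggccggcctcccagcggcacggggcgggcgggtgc
A match describes letters only, and binding was not measured.

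The sodium-proton exchangers held both genes that were higher and the largest negative difference in the set. Of the 5 Slc9a genes listed, 3 (60%) were higher and 1 (20%) lower at an unadjusted p under 0.05, against 12.1% and 12% of all genes. Slc9a2, a surface exchanger, was 7.91 and 8.44 in aOPC against 3.97 and 4.20 in aOL, a difference of -4.09 ± 0.27 (limma, adjusted p = 0.0611), or a 17.0-fold lower value. It reached the value of 5 that the test asks for in aOPC alone, the group where it is high, so its p-values give no support to the difference. With either aOL library left out the adjusted p was 0.00626 or 0.00398, and with either aOPC library left out the gene was not tested. The libraries of a group were close and the groups stood far apart.

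Slc9a8, the exchanger of the Golgi, was 11.47 and 11.21 against 12.21 and 12.20 (0.87 ± 0.21, adjusted p = 0.146). Slc9a9, an endosomal exchanger, overlapped (0.29 ± 0.26).

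The bicarbonate and anion carriers showed no common direction. Of 7 Slc4a genes 4 had a higher mean in aOL, against 51.3% of all genes. None had an unadjusted p under 0.05, where 12.1% of all genes were higher and 12% lower. Slc4a2, an anion exchanger, had the highest level of any carrier per kilobase of exon and did not differ, at 14.61 and 14.35 in aOPC against 14.54 and 14.78 in aOL. All 4 Slc26a genes had a lower mean in aOL, where 51.3% of all genes had a higher one, and 2 of the 4 overlapped between the groups. At an unadjusted p under 0.05, 1 of the 4 (25%) was lower, against 12% of all genes. Slc26a7 was 8.20 and 7.25 in aOPC against 3.03 and 5.30 in aOL (-3.56 ± 0.87, adjusted p = 0.15), without overlap but with aOL libraries far apart. Slc26a11, a sulfate transporter and the most abundant of the family, was 11.12 and 10.83 against 10.87 and 10.83.

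Among 12 acid-base partners, 9 were tested, and 2 were higher and 2 lower in aOL at an unadjusted p under 0.05, where 12.1% of all genes were higher and 12% lower. Car12, a carbonic anhydrase of the cell surface, was 2.63 and 3.50 in aOPC against 5.14 and 7.20 in aOL. Car12 reached the value of 5 in aOL alone, the group where it is high, so its place among the higher genes gives no support either. Ahcyl2, a relative of the bicarbonate carrier regulator IRBIT, was 12.15 and 11.84 against 12.94 and 12.75 (0.85 ± 0.22, adjusted p = 0.158). The scaffolds that anchor sodium-proton exchangers went the other way: Slc9a3r1 was 10.49 and 10.34 against 9.69 and 9.93 (-0.61 ± 0.21, adjusted p = 0.196), and Slc9a3r2 was 12.02 and 12.04 against 11.08 and 11.45 (-0.77 ± 0.22, adjusted p = 0.171). None of these genes passed adjustment. Car2, the abundant carbonic anhydrase of oligodendrocytes, was 18.39 and 18.12 against 18.60 and 18.50.

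The calcium, phosphate and magnesium carriers all had a higher mean in aOL, 10 of 10, against 51.3% of all genes, and 2 of the 10 were higher at an unadjusted p under 0.05, against 12.1%. Slc41a2, a magnesium carrier, was 7.15 and 7.27 in aOPC against 8.38 and 8.28 in aOL (1.12 ± 0.19, adjusted p = 0.127). Slc24a5, a potassium-dependent sodium-calcium exchanger best known from pigment cells, was 6.83 and 7.13 against 8.12 and 7.60 (0.88 ± 0.28, adjusted p = 0.183). The genes with the highest level per kilobase of exon in these families had an unadjusted p above 0.05. Slc8a3, a sodium-calcium exchanger, was 10.96 and 9.82 against 11.08 and 11.05 (0.68 ± 0.44, adjusted p = 0.39), Slc20a2, a phosphate importer, was 13.87 and 13.75 against 14.19 and 14.16 (0.37 ± 0.19), and Slc41a1 was 10.55 and 10.52 against 10.88 and 10.78 (0.30 ± 0.19). These 3 did not overlap between the groups, whereas Slc24a2, at 14.64 and 13.29 against 14.65 and 14.50, did. Slc8a1, the other Slc8a gene listed, was 11.75 and 11.45 against 12.17 and 12.18 (0.57 ± 0.21, adjusted p = 0.211).

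Of the 14 calcium and sodium pump genes on a fixed list, 12 were tested, with 1 higher and 1 lower at an unadjusted p under 0.05, which is below the 12.1% and 12% of all genes. Atp2a2, the calcium pump of the endoplasmic reticulum, was 14.20 and 13.77 in aOPC against 15.23 and 15.05 in aOL (1.16 ± 0.24, adjusted p = 0.134). Atp1b1, a sodium pump subunit, was 9.55 and 8.42 against 6.18 and 7.19 (-2.29 ± 0.56, adjusted p = 0.148). Slc8b1, the mitochondrial sodium-calcium exchanger once called Slc24a6, was above in aOL without overlap, at 8.76 and 9.42 against 9.655 and 9.59. Of 12 phosphate and magnesium genes, 10 were tested, with 3 higher and 0 lower, against the same 12.1% and 12%: Xpr1, the phosphate exporter, at 9.27 and 8.64 against 10.18 and 9.89 (1.08 ± 0.30, adjusted p = 0.166), Enpp1, which makes pyrophosphate, at 10.88 and 11.15 against 11.99 and 11.93 (0.94 ± 0.21, adjusted p = 0.137), and Magt1 at 13.66 and 13.86 against 14.36 and 14.29 (0.57 ± 0.20, adjusted p = 0.2).

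Levels were compared roughly between genes after division by exon length, taken over all annotated exons of a gene. The read depth behind the values is not known, so the order is a description. On the log2 value per kilobase of exon, Slc4a2 (12.35), Slc39a7 (12.24) and Slc20a2 (12.16) stood highest, followed by Slc39a3 (11.09) and Slc24a2 (10.85). Slc4a5 (3.12), Slc9a2 (3.49), Slc26a7 (3.58) and Slc30a2 (3.79) stood lowest over the 4 libraries. The same 4 genes had the largest differences between the populations among the 43.

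The carriers' 5hmC was spread over gene bodies and sparse in CpG island promoters. The files listed 3341 sites for them (a site is a CpG on 1 strand), 3117 in exons or introns and 713 in promoters, of which some count as both, and every one lies on a CCGG of GRCm38. At intron sites outside islands the mean was 0.888 ± 0.006 CPM per site in aOPC and 0.885 ± 0.006 in aOL (SD, n = 2), and at exon sites 0.963 ± 0.028 and 0.937 ± 0.035. At the 497 promoter sites inside CpG islands it was 0.191 ± 0.159 and 0.0950 ± 0.0314, and at the 216 promoter sites outside islands it was 0.729 ± 0.111 and 0.619 ± 0.003. At intron sites outside islands carriers were close to all genes, which held 0.887 and 0.866 CPM in aOPC and aOL. At island promoter sites all genes held 0.211 and 0.110. At exon sites all genes held more than carriers, 1.058 and 1.025, and at promoter sites outside islands less, 0.612 and 0.491.

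Summed over the gene body, the carriers' 5hmC hardly differed between the populations. All 67 gene bodies were tested with edgeR, and 1 was called lower (1.49%), 0 higher, where 0.687% of 18488 gene bodies were lower and 0.162% higher. At an unadjusted p under 0.05 there was that same gene alone, 1 of 67, where 7.3% of all gene bodies passed. DESeq2 called the same numbers, and without aOPC replicate 3 edgeR called 10 higher (14.9%) and 9 lower (13.4%), where 10.3% and 12.3% of all gene bodies were called. The median difference was -0.0065, against -0.0027 for all gene bodies, and 60 of 67 (89.6%) lay within 0.5 of zero, against 83.3%.

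**Figure D3:**
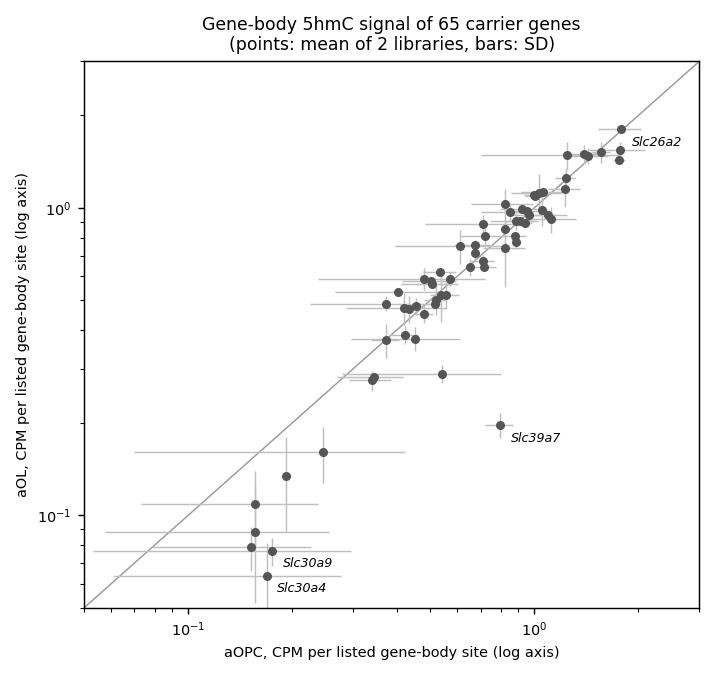
Gene-body RRHP signal of 65 carriers in aOPC and aOL, as CPM per listed site on log axes, with the mean of 2 libraries and SD bars and a line of equal values. Slc39a7, at 0.794 CPM per site in aOPC and 0.196 in aOL, lies farthest below the line. Slc39a5 (0.541 and 0.289) and genes at the low end, among them Slc30a1, Slc30a4, Slc30a9 and Slc39a6, also lie below it.

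Averaged over the 4 libraries, the highest gene-body signal per listed site in each family belonged to Slc26a2 (1.79 CPM in aOPC and 1.80 in aOL), Slc9a4 (1.76 and 1.43), Slc39a2 (1.76 and 1.54), Slc41a3 (1.43 and 1.48), Slc24a5 (1.24 and 1.49), Slc4a1 (1.12 and 0.918), Slc30a7 (1.09 and 0.946), Slc8a2 (0.879 and 0.807) and Slc20a2 (0.719 and 0.811). Within 1 population another gene led 3 of the families: Slc4a8 (1.03) and Slc41a2 (1.499) in aOL, and Slc8a3 (0.888) in aOPC. Their reads in the order aOPC replicate 2, aOPC replicate 3, aOL replicate 2 and aOL replicate 3 ran from 57, 104, 103 and 160 for Slc39a2, with 4 sites, to 530, 1543, 1559 and 2411 for Slc20a2, with 115. Slc4a1, the anion exchanger of red cells, held signal at its body though its RNA was not listed. Zinc exporters held the least, with a median of 0.310 CPM per site over the 10 Slc30a genes. The median was 0.695 over all 67 and 0.566 over all gene bodies. Of the 10, 8 had a difference below zero, where 49.6% of all gene bodies had one above zero. Summed only over sites with 3 or more reads in every library, 4 of the 7 exporters fitted were below zero. For Slc30a1, Slc30a4 and Slc30a9 most of the listed sites (12 of 13, 12 of 16 and 15 of 22) were in islands, where aOPC replicate 2 had a larger share of its reads.

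Slc9a2, whose RNA was 17.0-fold lower in aOL, had a like 5hmC total in both populations: 381, 1067, 940 and 1642 reads over 61 sites, a difference of 0.03 ± 0.13. Slc30a7, with higher RNA, had 310, 894, 678 and 1107 reads over 44 sites (-0.22 ± 0.14). Over the 43 genes with both measures the RNA and gene-body differences had a Spearman rho of -0.10 and 24 shared a sign; both are descriptions over genes that share the same 4 pellets.

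The exception was Slc39a7 (chr17:34028266-34031690, minus strand), the zinc channel of the endoplasmic reticulum. Its 15 gene-body sites held 91 and 188 reads in aOPC against 44 and 85 in aOL, or 11.9 ± 1.1 CPM against 2.94 ± 0.28 (SD, n = 2). The difference was -1.998 ± 0.25 (edgeR, adjusted p = 0.00354), and each aOL library was far below each aOPC library. A single CpG in a coding exon carried much of it. This site, at 34029887 on the minus strand, had 41 and 109 reads in aOPC against 0 and 2 in aOL, which was 45.1% and 58.0% of the gene's reads in aOPC and 0% and 2.35% in aOL. Without it the reads were 50, 79, 44 and 83, the difference was -0.97 and the adjusted p was 0.852, so the call of the gene body rested on this site, which was itself tested at site level through aOPC alone. Summed only over sites with 3 or more reads in all 4 libraries, the difference was -0.49. RNA of Slc39a7 differed by 1.09-fold, as given above.

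At single sites, 19 of 1144 tested carrier sites were called, 12 higher (1.05%) and 7 lower (0.612%) in aOL, where 1.21% and 1.08% of all 443062 tested sites were. Both shares were near or below that background. With DESeq2 there were 7 higher (0.612%) and 6 lower (0.524%), against 0.525% and 0.962% of all sites. Without aOPC replicate 3 there were 37 (3.57%) and 26 (2.51%), against 2.73% and 4.02%, and without aOPC replicate 2 there were 11 (0.97%) and 1 (0.0882%), against 1.45% and 0.211%. Without aOL replicate 2 there were 0 and 5, against 0.0779% and 1.08% of all sites, and without aOL replicate 3 there were 1 and 6, against 0.0729% and 1.23%. The carriers' counts thus moved with those of all sites. A site was tested if it had 10 reads in 2 libraries, and 17 of the 19 called sites reached 10 reads in 1 population alone, 11 in aOL and 6 in aOPC, each time the population where the site is high. They entered the test through that population alone, so the adjusted p-values of these 17 are given below as a description and support nothing. With 10 reads required in every library, 0 of 470 tested carrier sites were called higher and 1 lower. Of all 171055 sites so tested, 229 were higher and 261 lower. The sites fell in 13 genes, 16 of the 19 were intronic, 1 was in a promoter and none was in an island. Of the tested carrier sites 90.3% had a difference within 1 of zero, against 88.8% of all tested sites.

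The sites that carry these calls are shown in 30 bases of the plus strand of GRCm38, with the CCGG that MspI reads in capitals. They are called sites with low p, among them the clustered sites of Slc39a11.
Slc39a7 chr17:34029872-34029901: ctctgaggtttcaCCGGgccatctctgggc
Slc20a2 chr8:22510527-22510556: gagggaagaataaCCGGtgtagctgctaag
Slc20a2 chr8:22562281-22562310: ctgggtagagatcCCGGgagtgagggaagg
Slc39a11 chr11:113285910-113285939: acactgggtttatCCGGtgtcaggggttct
Slc39a11 chr11:113286306-113286335: ggtctgcagcctaCCGGatcatctcctaat
Slc30a7 chr3:115972990-115973019: ctgctgtgtcctcCCGGgtcctcccaccga
Slc26a10 chr10:127180650-127180679: agcagggtccaatCCGGacctgtagggagt

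Several sites had many reads in 1 population and 0 to 2 reads per library in the other. The Slc39a7 site above was 138-fold higher in aOPC (95% exact interval of the ratio of counts 37.5 to 1149.6, adjusted p = 6.39e-06). It reached 10 reads in aOPC alone. Slc20a2, the phosphate importer, had such a site in each direction, tested through the population where it is high. At 22510542 on the minus strand, in an intron, it had 31 and 73 reads in aOPC against 0 and 1 in aOL, a 191-fold ratio (33.6 to 7628, adjusted p = 1.18e-05). At 22562296, further into the gene, it had 0 and 0 in aOPC against 35 and 54 in aOL, at least 6.24-fold higher against the limit of 3 counts in each aOPC library (adjusted p = 0.000471), while the other strand of that CCGG had 14 and 67 reads in aOPC against 56 and 87 in aOL. The gene body of Slc20a2 as a whole differed by 0.17 ± 0.14.

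Slc30a7 had an intronic site at 115973005 with 19 and 22 reads in aOPC against 0 and 1 in aOL (75.4-fold, 12.8 to 3050.5, adjusted p = 0.000717). Slc30a9 had an intronic site at chromosome 5, 67340759, with 10 and 16 against 0 and 0 (at least 8.71-fold lower in aOL, adjusted p = 0.00206). The only promoter site called was in Slc26a10, at 127180665 and 40 bases inside the outermost RefSeq start but outside the gene as GENCODE annotates it, with 12 and 20 reads against 0 and 0 (at least 10.6-fold lower, adjusted p = 0.000752). In all 3 the aOL libraries were at or next to zero, and each site reached 10 reads in aOPC alone. Intervals and limits cover counting error only.

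The reverse was seen at further intronic sites that were nearly unread in aOPC and reached 10 reads in aOL alone. Slc39a8, a zinc and manganese importer, had 0 and 0 reads in aOPC against 18 and 39 in aOL at chromosome 3, 135844052 (at least 3.85-fold higher, adjusted p = 0.00294). Slc39a13, a zinc transporter of the secretory pathway, had 0 and 1 against 24 and 32 at chromosome 2, 91063925 (30.4-fold, 5.245 to 1224, adjusted p = 0.00469), while the other strand held 44 and 126 against 114 and 199. Slc9a8 and Slc9a5 were called close to the threshold. Slc9a8 had 0 and 0 against 14 and 13 at chromosome 2, 167450701 (at least 2.01-fold, adjusted p = 0.0449), and Slc9a5 had 0 and 1 against 15 and 17 at chromosome 8, 105355075 (17.4-fold, 2.91 to 708, adjusted p = 0.0468).

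Altogether 11 of the 19 called sites, 6 higher and 5 lower, had at most 3 reads in each library of 1 population. Sites of this kind made up 1.75% of all tested sites and a median of 0.55% over 532 stretches of 5 Mb, and the stretches around these genes were often richer in them: 5.54% around Slc30a7, 5.35% around Slc39a8, 4.75% around Slc39a7, 4.32% around Slc20a2, 3.396% around Slc26a10 and 3.23% around Slc30a9. Around Slc39a13 and Slc9a8 the share was 0.481% and 0.342%. RRHP can read a site only where the animals' own genome holds the CCGG, and the genome sequence of these animals was not analysed here. The part of either in the calls was not tested. On the opposite strand of the same CCGG, a site was listed for 12 of the 19, tested for 5 and called for 0, where 5.52% of all called sites had both strands called in the same direction.

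**Figure D4:**
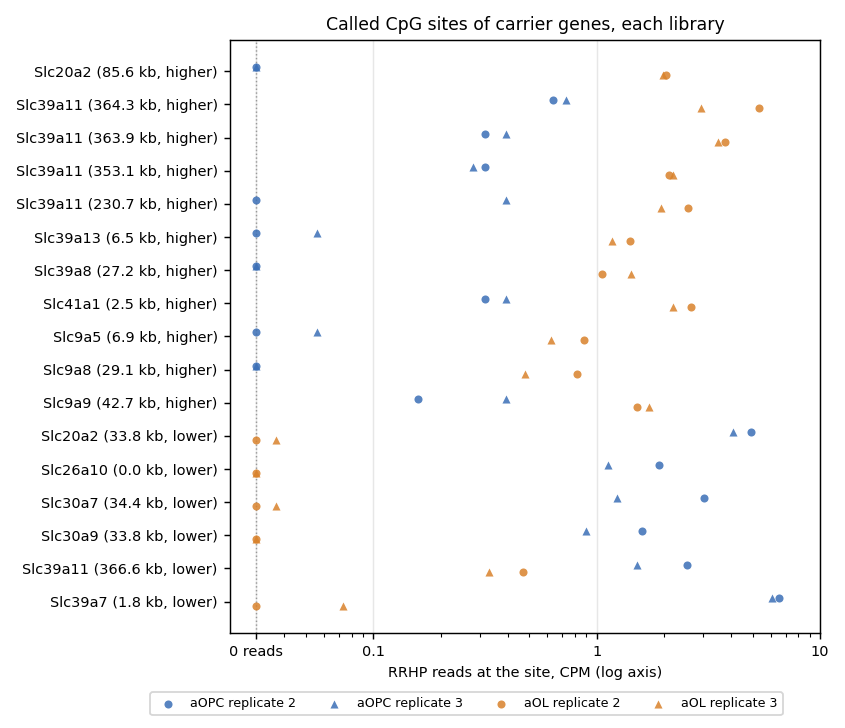
RRHP reads at 17 of the called carrier sites in each library, as CPM on a log axis, with the distance of each site from the annotated start of its gene in kb and its direction in aOL. Points on the dotted line stand for 0 reads, and aOPC (blue) and aOL (orange) points do not overlap at any site shown.

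The other 8 called sites had more than 3 reads in at least 1 library of each population. Slc9a9 and Slc41a1 had such sites, both of which reached 10 reads in aOL alone. Slc9a9, the endosomal exchanger, was higher at an intronic site at chromosome 9, 94712270, with 1 and 7 reads against 26 and 47 (2.31 ± 0.56, adjusted p = 0.0417). Slc41a1, the magnesium carrier, was higher at chromosome 1, 131830481, in an exon that is annotated as untranslated, with 2 and 7 reads against 45 and 60 (2.67 ± 0.49, adjusted p = 0.00585).

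Slc39a11 (chr11:113244851-113650200, minus strand), a zinc carrier, held 5 of the 19 called sites. It also had the most sites, 392 listed and 183 tested, and 2.73% of those tested were called, near the 2.29% of all tested sites. Within it 4 sites were higher: 113285924 with 4 and 13 reads against 91 and 80 (adjusted p = 0.00406), 113286321 with 2 and 7 against 64 and 95 (adjusted p = 0.000407), 113297062 with 2 and 5 against 36 and 60 (adjusted p = 0.00583) and 113419512 with 0 and 7 against 44 and 53 (adjusted p = 0.0142). Their differences were 2.53 ± 0.45, 3.26 ± 0.45, 2.86 ± 0.53 and 2.98 ± 0.62, from aOPC values of 0.196 to 0.682 CPM to aOL values of 2.15 to 4.13 CPM. Of the 4, only 113285924 had 10 reads in a library of each population, and the others were tested through aOL alone. The first 2 lie 397 bases apart. On the opposite strand the first of them had 15 and 60 reads against 46 and 81 and did not differ (-0.07, adjusted p = 0.971).

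The fifth site of Slc39a11, at 113283588, went the other way, with 16 and 27 reads in aOPC against 8 and 9 in aOL (-2.28 ± 0.52, adjusted p = 0.0281), and was tested through aOPC alone. Higher and lower sites thus lay side by side in introns of the gene. Over the whole body the reads were 2092, 6309, 6338 and 9836, or 333 ± 57 CPM against 380 ± 23, a difference of 0.19 ± 0.15, and of the 183 tested sites 102 were above zero and 81 below, with 165 within 1. The called sites held 1.15% and 0.935% of the gene's reads in aOPC and 3.83% and 3.02% in aOL. Its RNA overlapped, at 8.64 and 9.14 in aOPC against 9.09 and 9.04 in aOL.

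**Figure D5:**
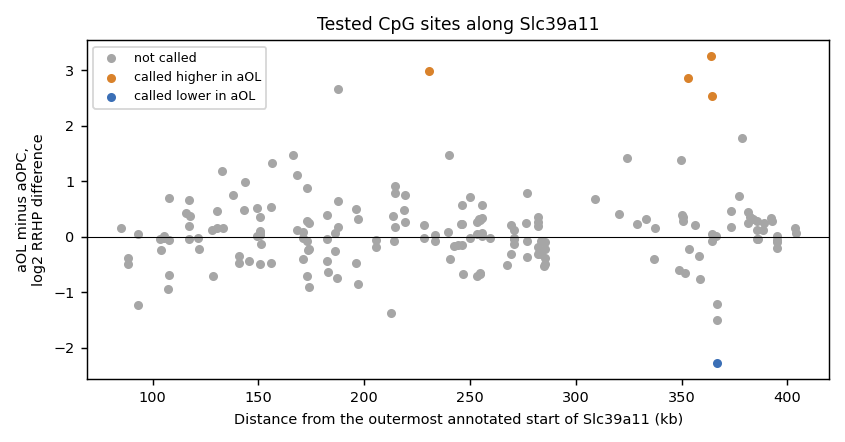
Difference at each of the 183 tested CpG sites of Slc39a11, aOL minus aOPC on the log2 scale, against distance in kb from the outermost annotated start. Of the 4 sites called higher (orange), 3 lie together toward the far end of the gene, the site called lower (blue) lies next to them, and most grey sites fall within 1 of zero.

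Promoters gave no call. Sites in promoters were listed for 60 carriers, and 52 had enough reads to be tested. None was called in either direction, where 0.418% of 14579 promoters were higher and 0.35% lower, and 2 of 52 had an unadjusted p under 0.05, where 5.97% of all promoters had. DESeq2 called none, and edgeR called 2 of 52 higher (3.85%) and 0 lower without aOPC replicate 2, where 0.769% and 0.682% of all promoters were called. Without aOPC replicate 3 it called 7 of 54 higher (13%) and 1 lower (1.85%), where 9.68% and 1.28% were. The median difference was 0.07 against -0.01 for all promoters. The scaling sets this level: with library totals as the only scaling the medians were -0.59 and -0.60, and 16 of the 52 carrier promoters changed direction. With that scaling 0 carriers were again called, and over all promoters 31 were higher and 68 lower, against 61 and 51 with TMM.

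The promoter of Slc26a10, which holds the called site described above, had 42 and 55 reads against 22 and 45 (-1.03 ± 0.38, adjusted p = 0.435).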

How the data were processed

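RNA was sequenced from 4 libraries and RRHP from 4 libraries of aOPC and aOL sorted at postnatal day 60. Per the submitters' processing notes, reads were aligned to mm10 with BWA and RNA was normalized with DESeq2 1.2.5. The deposited RNA values are on the log2 scale, with near-equal quantiles in every library, for 11315 genes; how the genes were chosen is not given in the sources used here. The deposited RRHP files hold whole-number read counts per CpG site and strand, with promoter, exon, intron and island columns made by the authors.

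RNA was tested with limma 3.58.1 on genes that reached a value of 5 in 2 or more libraries; low-level genes can change status with this filter. For RRHP, edgeR 4.0.16 (quasi-likelihood test, TMM scaling, library totals as depth) was run on sites that reached 10 reads in 2 or more libraries, and sums over exons and introns or over promoters after filterByExpr. P-values were adjusted by Benjamini-Hochberg over each whole table. The threshold was an adjusted p of 0.05, for RNA with p under 0.01 also. Each test was checked on simulated data, in which the set changes were larger than most RNA differences given here. The check does not show how well small changes are found. Alternatives included DESeq2 1.42.0, other scalings and filters, a replicate block and leaving out each library. Genes named with values in every library are those at an unadjusted p under 0.05 in RNA, with a called site, gene body or promoter or with the highest RNA level or gene-body signal per site in their family; some of these are not reported here. Members and lists were chosen with earlier results of these data known. Coordinates and exons are RefSeq (all 67 genes matched) and GENCODE for GRCm38; file positions were made 1-based. RNA values carry no read depth; RRHP depth is limited by aOPC replicate 2, with a median of 8 reads at a tested carrier site against 23 to 38 in the others.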

Additional observations from a re-analysis of the deposited data

How the results depend on the processing

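Replicate numbers do not pair the samples: the 2 populations' deviations correlated at -0.07 in RNA and -0.07 at RRHP sites. With the replicate number as a block, 1 RNA carrier (Slc9a2) was lower after adjustment, where 30 of 11133 genes were higher and 97 lower. RRHP site calls were then 16 higher and 8 lower, where 7476 of 443062 sites were higher and 5551 lower. Requiring a value of at least 5 in all libraries left 0 RNA carriers lower at an unadjusted p under 0.05, since it dropped Slc9a2 and Slc26a7 from the test. Leaving out 1 library at a time gave 0 to 12 RNA carriers higher and 1 to 2 lower after adjustment, 1 to 21 higher and 2 to 3 lower at an unadjusted p under 0.05; a lone library was then taken to vary like the other group. The same gave 0 to 37 sites higher and 1 to 26 lower, 0 to 10 gene bodies higher and 1 to 9 lower, and 0 to 7 promoters higher and 0 to 1 lower, with the highest RRHP counts always without aOPC replicate 3; the cause was not tested.

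Site calls were 12 higher and 7 lower here, and 7 higher with DESeq2, where 0.525% of all sites were higher. With 10 reads required in every library, which leaves out sites unread in 1 population, they were 0 higher and 1 lower. Of all 171055 sites so tested, 229 were higher and 261 lower. With no filter 22 and 22 of 3341 carrier sites were called, and 10291 and 12886 of all 1497075 sites. Summing both strands of a CCGG, an alternative added after the data were seen, gave 6 higher. The share over all sites is not given for that alternative. The Slc39a7 gene body was no longer called (0 lower) when the sum took only sites with 3 or more reads in all 4 libraries, or, again added later, without called sites. None of the 14 RNA differences at an unadjusted p under 0.05 and none of the called sites changed direction where it was tested. Over all carriers with RNA, 1 to 5 changed direction when a library was left out, and over gene bodies 5 to 24 of 67, the most without aOPC replicate 2.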
